A study of Mus musculus with 6 samples.

Results

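Solute carriers are the membrane proteins that move amino acids, ions, metals, vitamins, lipids and nucleotide sugars into, out of and within cells. In mouse testis, 90 genes with their symbols were expressed at the level described here. The members were chosen by measured values. They are the protein-coding genes with an Slc symbol, other than the glucose (Slc2a), monocarboxylate (Slc16a) and mitochondrial (Slc25a) families, Slc4a1 and Slc22a18, whose mean over the 6 libraries was at least 5 FPKM, a read number scaled to gene length and to the total of its library. Of 301 symbols that met the naming part of the rule, 90 reached this level, out of 55850 genes in the table. Just inside the limit lay Slc35f2 at a mean of 5.05 FPKM and Slc36a1 at 5.16 FPKM. Just outside lay Slc37a4 at 4.96 FPKM and Slc35a2 at 4.83 FPKM. Since the rule used the mean of all libraries, a few members reached the limit through 1 group. The WT mean was under 5 FPKM for 4 of them (Slc40a1, Slc19a2, Slc35c1 and Slc29a3) and the cKO mean for 3 (Slc1a6, Slc52a3 and Slc35f2). The label was kept for 86 members, among them Slc22a17, described below as a receptor, and Slc3a2, the heavy chain of an exchanger. The other 4, Slc9a3r1, Slc9a3r2, Slc4a1ap and Slc7a6os, carry a carrier's symbol but encode no transporter.

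Whole testis RNA of 3 conditional knockout (cKO) and 3 wild-type (WT) mouse samples was sequenced to compare gene expression when Sertoli cells lose the splicing factor SRSF2. The labels give cKO samples the genotype CKO and control samples the genotype WT, both with no treatment. The sources used here give no age of the mice, no Cre driver, no deleted part of Srsf2 and no word on pooled animals. Nor do they say whether each sample is its own animal, and the p-values therefore measure only the spread among the 6 samples, which may be technical.

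In the seminiferous tubule, Sertoli cells form the blood-testis barrier, and germ cells behind it depend on what Sertoli cell membranes carry across. Carriers of the plasma membrane exchange amino acids, ions and vitamins with the outside, many of them driven by the sodium gradient that the sodium pump sets up. Others sit in the endoplasmic reticulum, the Golgi apparatus or vesicles and load them with nucleotide sugars, zinc or other cargo.

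The cKO libraries held 16185976 to 17281330 recovered reads and the WT libraries 16070287 to 16479907. Srsf2 averaged 82.9 ± 7.70 FPKM in cKO and 108.5 ± 16.2 FPKM in WT testis (SD, n = 3 each), with no overlap and a limma adjusted p of 0.384. Markers of all 7 testis cell types looked for were present, and none was at 0. The summed level of 22 Sertoli markers was 1554 to 1755 FPKM in cKO and 2031 to 2619 FPKM in WT libraries. Of these markers 10 were lower at an unadjusted p under 0.05 and 0 passed after adjustment. Of 11 tested germ cell markers 3 were higher at that level, with sums of 259 to 386 FPKM in cKO and 204 to 363 FPKM in WT. Sums overlapped for Leydig cells (1495 to 1743 FPKM in cKO, 1276 to 1902 in WT), endothelium (77.7 to 85.2 in cKO, 84.6 to 97.1 in WT) and red blood cells (4860 to 6438 in cKO, 2712 to 5657 in WT). They did not overlap for stroma (658 to 814 in cKO, 826 to 870 in WT) and macrophages (19.5 to 24.7 in cKO, 25.5 to 30.6 in WT), although the log2 difference was positive for 3 of 6 tested stromal markers (median -0.01) and for 4 of 7 macrophage markers (median 0.04). At an unadjusted p under 0.05, 1 of 6 Leydig markers and 1 of 5 red cell markers were higher, and 1 of 6 tested stromal, 2 of 7 endothelial and 2 of 7 macrophage markers were lower. Over all genes tested, 4.65% were higher and 7.68% lower at that level. The 18S ribosomal RNA gene took 0.727 to 0.835% of reads in cKO and 1.58 to 2.09% in WT libraries, and mitochondrial genome genes took 2.39 to 2.97% in cKO and 1.66 to 1.98% in WT. The part of these differences in the results on carriers was not tested. In bulk tissue, fewer cells of a type and less RNA per cell cannot be told apart.

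Upstream sequences are shown for the 4 members with the lowest p, whose differences were the largest relative to their error. Each line gives the 250 bases before a RefSeq start site, 5′ to 3′ on the gene's own strand, on GRCm38.p6. The regions are chr3:90389939-90390188 on the minus strand for Slc27a3, chr14:54913133-54913382 on the minus strand for Slc22a17, chrX:8271131-8271380 on the plus strand for Slc38a5, and chr2:129198523-129198772 on the plus strand for the first of 2 start sites of Slc20a1. The RefSeq start sites shown for Slc38a5 and Slc20a1 lie inside the genes as GENCODE bounds them, so that nearly all of the Slc38a5 region and the last bases of the Slc20a1 region are within the GENCODE gene. Capitals mark matches to short motifs, searched on both strands, and none of the matches overlaps another.
Slc27a3: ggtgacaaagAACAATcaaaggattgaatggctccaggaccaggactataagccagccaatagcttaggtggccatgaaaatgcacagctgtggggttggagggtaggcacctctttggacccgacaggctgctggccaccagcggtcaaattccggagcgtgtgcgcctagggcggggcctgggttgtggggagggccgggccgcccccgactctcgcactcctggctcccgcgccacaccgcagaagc
Slc22a17: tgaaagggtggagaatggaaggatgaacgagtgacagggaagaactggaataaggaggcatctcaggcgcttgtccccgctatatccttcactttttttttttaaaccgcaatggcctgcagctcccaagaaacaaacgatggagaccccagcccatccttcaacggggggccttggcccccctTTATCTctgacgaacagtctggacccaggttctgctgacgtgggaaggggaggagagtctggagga
Slc38a5: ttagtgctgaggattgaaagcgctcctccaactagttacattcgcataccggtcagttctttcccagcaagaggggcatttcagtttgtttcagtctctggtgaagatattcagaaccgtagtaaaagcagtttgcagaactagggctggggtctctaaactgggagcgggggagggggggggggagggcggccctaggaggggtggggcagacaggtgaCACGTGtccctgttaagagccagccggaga
Slc20a1: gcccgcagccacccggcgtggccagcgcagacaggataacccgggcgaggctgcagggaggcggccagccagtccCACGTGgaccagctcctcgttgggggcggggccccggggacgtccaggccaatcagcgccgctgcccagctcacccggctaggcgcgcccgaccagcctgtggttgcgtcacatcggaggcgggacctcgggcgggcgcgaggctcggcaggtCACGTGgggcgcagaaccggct
Of the 90 members 67 were found in the RefSeq promoters, with 95 start sites. A SOX core, spelled AACAAT, is marked in Slc27a3, and 4 of the 95 member promoters hold it, beside 9.42% of all 32851 mouse promoters of this length. A GATA core, spelled AGATAA, is marked in Slc22a17, where it is read on the other strand, and 5 member promoters hold it, beside 9.99% of all. An E-box, spelled CACGTG, is marked at 1 place in Slc38a5 and at 2 places in Slc20a1, and 14 member promoters hold it, beside 6.02% of all. The core of NR5A1 sites, spelled AAGGTCA, is in none of the 4 regions shown, and 2 member promoters hold it, beside 4.08% of all. The regions of Slc27a3, Slc22a17, Slc38a5 and Slc20a1 are 62.4%, 53.6%, 55.2% and 75.2% G and C. A match of this kind is a description of letters, not a binding site.

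The summed level of the carriers overlapped between cKO and WT testis. Summed over the 90 members, cKO libraries held 1219, 1145 and 1232 FPKM, against 1171, 1261 and 1287 FPKM in WT libraries, so that cKO replicate 2 was lowest and WT replicate 3 highest. The log2 difference, cKO minus WT on the log2(FPKM + 1) scale, was positive for 45 members and negative for 45. Its median was -0.01, beside 0.00 over all 14238 genes tested and -0.01 over the 8775 of them at a mean of at least 5 FPKM. It ranged from -0.66 for Slc27a3 to 0.53 for Slc40a1, and lay within 0.2 of 0 for 58 members.

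No single carrier passed the test over all genes. By limma with Benjamini-Hochberg adjustment 0 of 90 members had an adjusted p under 0.05, against 2 of all genes tested (0.0140%), and the lowest adjusted p of a member was 0.360. At an unadjusted p under 0.05, 6 members (6.67%) were higher, against 4.65% of genes tested, and 8 members (8.89%) were lower, against 7.68%. Slc40a1 and Slc19a2 among the higher and Slc1a6 among the lower met the level limit only through the group where they are high. Among genes at a mean of at least 5 FPKM, as the members are, the shares were 4.87% higher and 9.94% lower. In 10 members (11.1%) every cKO library lay above every WT library, against 8.69% of genes tested, and in 12 (13.3%) every one lay below, against 9.92%. Among genes of at least 5 FPKM these shares were 8.70% and 12.2%. The members' counts were thus near the background. On the TPM scale the non-overlapping members became 11 higher (12.2%) and 6 lower (6.67%). Of all genes tested, 11.5% were higher and 7.26% lower without overlap on that scale. Without WT replicate 3 the counts at an unadjusted p under 0.05 were 3 higher and 4 lower, without cKO replicate 2 also 3 and 4, and without cKO replicate 3 they were 2 and 4. The shares over all genes tested were smaller in these fits as well. They were 3.30% higher and 4.39% lower where WT replicate 3 was dropped. Dropping cKO replicate 2 gave 1.65% higher and 3.72% lower, and dropping cKO replicate 3 gave 1.87% higher and 3.35% lower. Of the 14 members at this level 6 kept it whichever library was left out, namely Slc27a3, Slc22a17, Slc38a5, Slc20a1, Slc40a1 and Slc9a3r2. The 14 were picked by their p in these same data, and the share of all genes tested that kept this level was not computed.

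**Figure D1:**
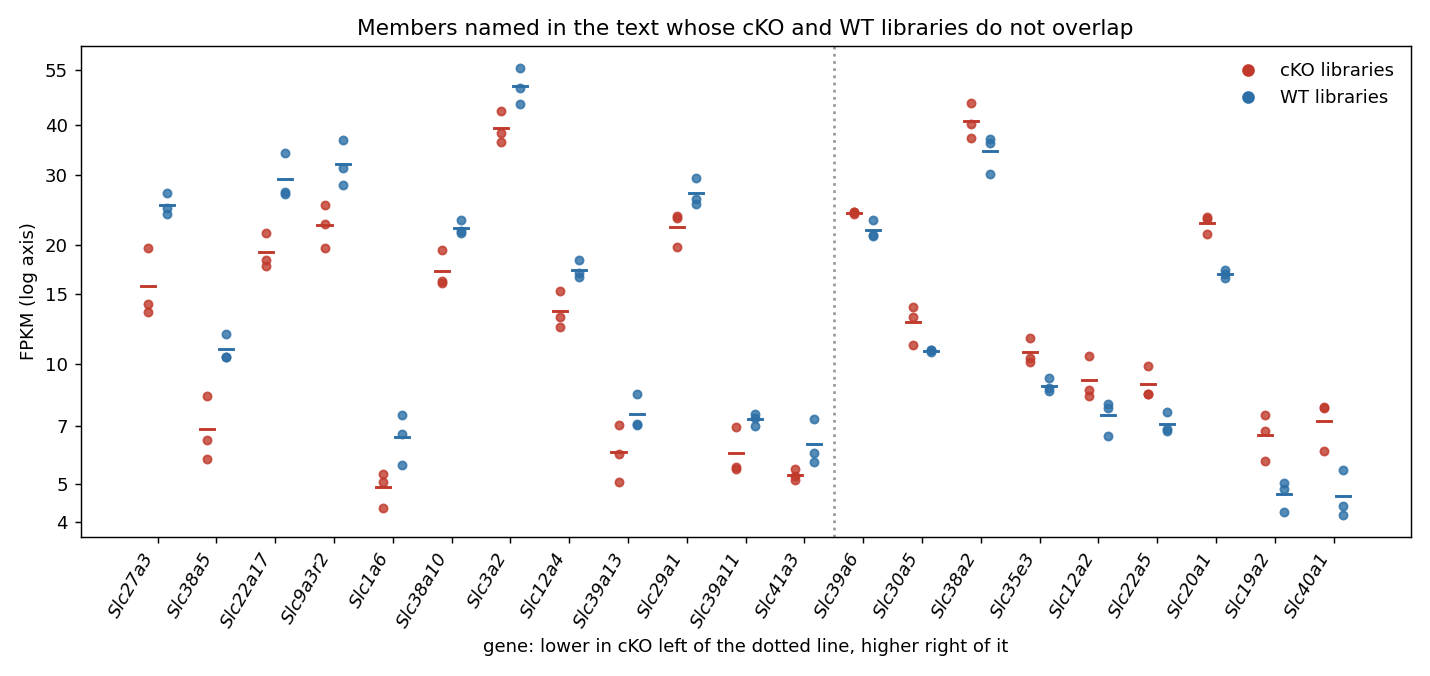
FPKM in each of the 3 cKO and 3 WT libraries for 21 of the 22 members whose groups did not overlap, on a log axis, with short lines at the group means. Drawn are 9 of the 10 members with all cKO points above all WT points, and all 12 with them below.

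GC content ran with the differences. Across the 90 members the log2 difference correlated with the GC content of the transcripts at r = -0.71, a description across genes that share the same 6 libraries, beside r = -0.57 over 13945 tested genes. The 10 non-overlapping members that were higher had 42.3 to 50.6% GC (median 47.1%), and the 12 that were lower had 52.6 to 60.9% (median 57.1%). When the trends of each library on gene length and GC were removed, the members' r was -0.20. At an unadjusted p under 0.05, 5 members were then higher, against 2.81% of genes tested in that fit, and 5 were lower, against 5.05%. Of the 14 members under 0.05 as deposited, 10 stayed under it, and 14 of the 22 non-overlapping members stayed so. How many of all genes tested stayed so was not computed. The value with these trends removed is given below for each leading member, and the cause of the relation was not tested.

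**Figure D2:**
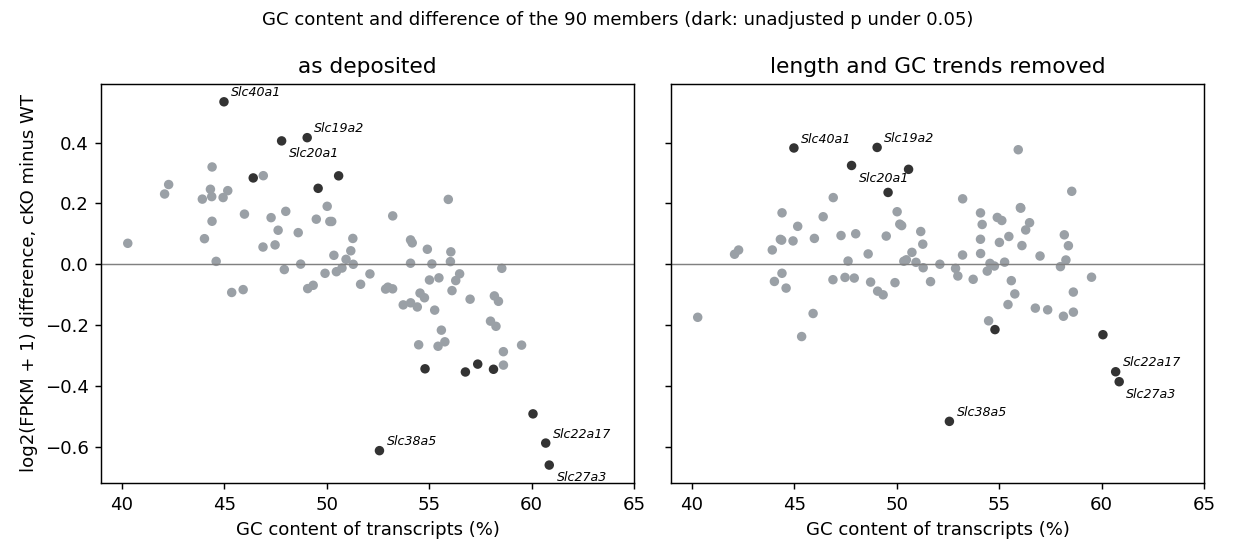
Log2(FPKM + 1) difference, cKO minus WT, of the 90 members against the GC content of their transcripts in percent, as deposited (left) and with length and GC trends removed (right). Dark points have an unadjusted p under 0.05 in that fit, and the downward slope at left (r = -0.71) is shallow at right (r = -0.20).

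Amino acid carriers formed the largest substrate group, with 16 members. They held 4 of the 8 members that were lower at an unadjusted p under 0.05, or 25% of the group, beside 7.68% of genes tested and 9.94% of those of at least 5 FPKM. None of the group was higher at that level. Their median log2 difference was -0.04, or 0.07 once length and GC trends were removed. In that fit 2 of the group were lower and 0 higher at an unadjusted p under 0.05. The shares of genes tested there were 5.05% lower and 2.81% higher. Slc38a5 encodes a sodium-coupled carrier of glutamine, asparagine and histidine and is known from Sertoli cells. It had 5.78, 6.46 and 8.34 FPKM in cKO libraries, against 11.9, 10.4 and 10.4 FPKM in WT libraries, so all cKO libraries were low and the groups did not overlap. A log2 difference of -0.61 resulted (SE 0.14, limma adjusted p = 0.361). It was -0.52 with length and GC trends removed and -0.74 to -0.51 when any 1 library was left out. The gene (ENSMUSG00000031170) lies on the plus strand of chromosome X at 8271133 to 8280179 of GRCm38 with no exon overlap with another annotated gene. The sum of Sertoli markers was lower in the same libraries, and its part in the difference of Slc38a5 was not tested.

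Both chains of the large neutral amino acid exchanger were members. Slc3a2, the heavy chain that brings several light chains to the membrane, had 43.4, 36.3 and 38.3 FPKM in cKO libraries, against 55.7, 45.4 and 49.6 FPKM in WT libraries, with no overlap. Its log2 difference was -0.34 (SE 0.13, limma adjusted p = 0.380), and -0.21 with length and GC trends removed. Slc7a5, its leucine-carrying light chain and the member with the highest mean at 84.5 FPKM, had 88.0, 77.8 and 83.7 FPKM in cKO libraries, against 72.1, 102 and 82.8 FPKM in WT libraries. The WT libraries lay on both sides of the cKO libraries, and the log2 difference of Slc7a5 was -0.03 (SE 0.15). Whether the difference of Slc3a2 departs from that of Slc7a5 was not tested. The 6 members with an Slc7 symbol lay between -0.09 and 0.14, and 0 of them had an unadjusted p under 0.05. Among them was Slc7a6os, which is not a carrier, at -0.07.

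Within the Slc38 family of glutamine and alanine carriers the members had differences of both signs. Slc38a10 averaged 17.2 ± 1.94 FPKM in cKO and 22.1 ± 0.904 FPKM in WT libraries (SD, n = 3 each), all cKO libraries being lower. The log2 difference was -0.35 (limma adjusted p = 0.379), and -0.17 with length and GC trends removed, where the unadjusted p was no longer under 0.05. Slc38a2, a carrier of small neutral amino acids that cells raise on amino acid shortage, had 37.2, 40.4 and 45.4 FPKM in cKO libraries, against 30.2, 36.1 and 36.9 FPKM in WT libraries. Here all cKO libraries were higher, by a gap smaller than the spread within either group, and the log2 difference of 0.25 had no unadjusted p under 0.05. With the trends removed it was 0.08. Slc1a6, a glutamate carrier known from cerebellar Purkinje cells, averaged 4.90 ± 0.483 FPKM in cKO and 6.56 ± 0.955 FPKM in WT libraries (SD, n = 3 each), without overlap. Slc1a6 met the limit of 5 FPKM only through its WT libraries. With the trends removed its difference shrank to -0.14 on the log2 scale, beside -0.35 as deposited, and the groups overlapped. Slc1a5, the neutral amino acid exchanger known for glutamine uptake, averaged 7.17 ± 1.65 FPKM in cKO and 7.40 ± 1.04 FPKM in WT.

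Of 4 fatty acid carriers, 1 had an unadjusted p under 0.05. Slc27a3 belongs to the fatty acid transport proteins, which activate long-chain fatty acids with coenzyme A. It had 19.6, 14.2 and 13.6 FPKM in cKO libraries, against 27.0, 23.9 and 24.8 FPKM in WT libraries, 62.6% of the WT mean. The groups did not overlap, and the cKO library nearest to WT was replicate 1. Its log2 difference of -0.66 was the largest in size of all members (SE 0.15, limma adjusted p = 0.360). It was -0.39 with length and GC trends removed, and its transcripts were among the members' richest in GC at 60.9%. The gene (ENSMUSG00000027932) lies on the minus strand of chromosome 3 at 90385239 to 90389938 of GRCm38 with no exon overlap. Slc27a4, Slc27a1 and Slc27a6, from the same family, had overlapping groups and log2 differences of -0.09, -0.12 and -0.02.

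The group of amines and organic ions held 3 members, and 1 was lower and 1 higher at an unadjusted p under 0.05. The lower one, Slc22a17, was placed in this group but is described here as a receptor. Slc22a17, a receptor for the siderophore-binding protein lipocalin 2, had 21.5, 17.7 and 18.3 FPKM in cKO libraries, against 26.9, 27.2 and 34.0 FPKM in WT libraries. All cKO libraries were lower, and a log2 difference of -0.59 resulted (SE 0.14, limma adjusted p = 0.360), and -0.35 once length and GC trends were removed. The gene (ENSMUSG00000022199) lies on the minus strand of chromosome 14 at 54906304 to 54913132 with no exon overlap. Slc22a5, the sodium-dependent carnitine carrier, had 8.43, 8.41 and 9.90 FPKM in cKO libraries, against 6.78, 7.60 and 6.89 FPKM in WT libraries. Its groups did not overlap, and the log2 difference was 0.29 as deposited (limma adjusted p = 0.384) and 0.31 with the trends removed, under an unadjusted p of 0.05 in both. Slc18b1, a polyamine carrier of vesicles, had a difference of 0.15 with overlapping groups.

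Phosphate had 2 members, the sodium-coupled carriers Slc20a1 and Slc20a2, which also serve as retrovirus receptors. Slc20a1 had 21.3, 23.3 and 23.5 FPKM in cKO libraries, against 16.5, 17.2 and 16.9 FPKM in WT libraries, a gap wider than the spread within either group. A log2 difference of 0.41 resulted (SE 0.10, limma adjusted p = 0.361), and 0.32 with length and GC trends removed. The gene (ENSMUSG00000027397) lies on the plus strand of chromosome 2 at 129198764 to 129211616 and shares exon bases with 9830144P21Rik and Gm4430 on the other strand, so its reads are uncertain to that extent. Slc20a2 averaged 9.65 ± 0.826 FPKM in cKO and 9.61 ± 1.77 FPKM in WT (SD, n = 3 each), a difference of 0.02.

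Zinc carriers come in 2 families, Slc30, which mostly moves zinc out of the cytosol, and Slc39, which mostly moves it in. Of 13 zinc members 0 had an unadjusted p under 0.05. The 6 Slc30 members had a median log2 difference of 0.17, with 5 positive, and summed to 58.0, 63.2 and 64.9 FPKM in cKO libraries, against 55.2, 55.3 and 57.1 FPKM in WT libraries. These sums did not overlap, but with length and GC trends removed the family median was 0.04, and the median GC content of these members was 45.2%. Slc30a5, which supplies zinc to the secretory pathway, had 11.2, 13.9 and 13.1 FPKM in cKO libraries, against 10.7, 10.8 and 10.9 FPKM in WT libraries. Those groups did not overlap as deposited, but did once the trends were removed.

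The 7 Slc39 members had a median of -0.08 and sums of 127, 115 and 125 FPKM in cKO libraries, against 113, 127 and 126 FPKM in WT libraries, which overlapped. Slc39a1, the main zinc importer by level at a mean of 47.0 FPKM, differed by -0.08 with overlapping groups. Slc39a6 had 23.9, 24.2 and 24.2 FPKM in cKO libraries, against 23.1, 21.0 and 21.1 FPKM in WT libraries, all cKO libraries being slightly higher (log2 difference 0.14). Slc39a11 and Slc39a13, carriers of internal membranes, were lower in all cKO libraries, by log2 differences of -0.25 and -0.29, and overlapped once the trends were removed. Slc39a13 shares exon bases with Psmc3 on the other strand.

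**Figure D3:**
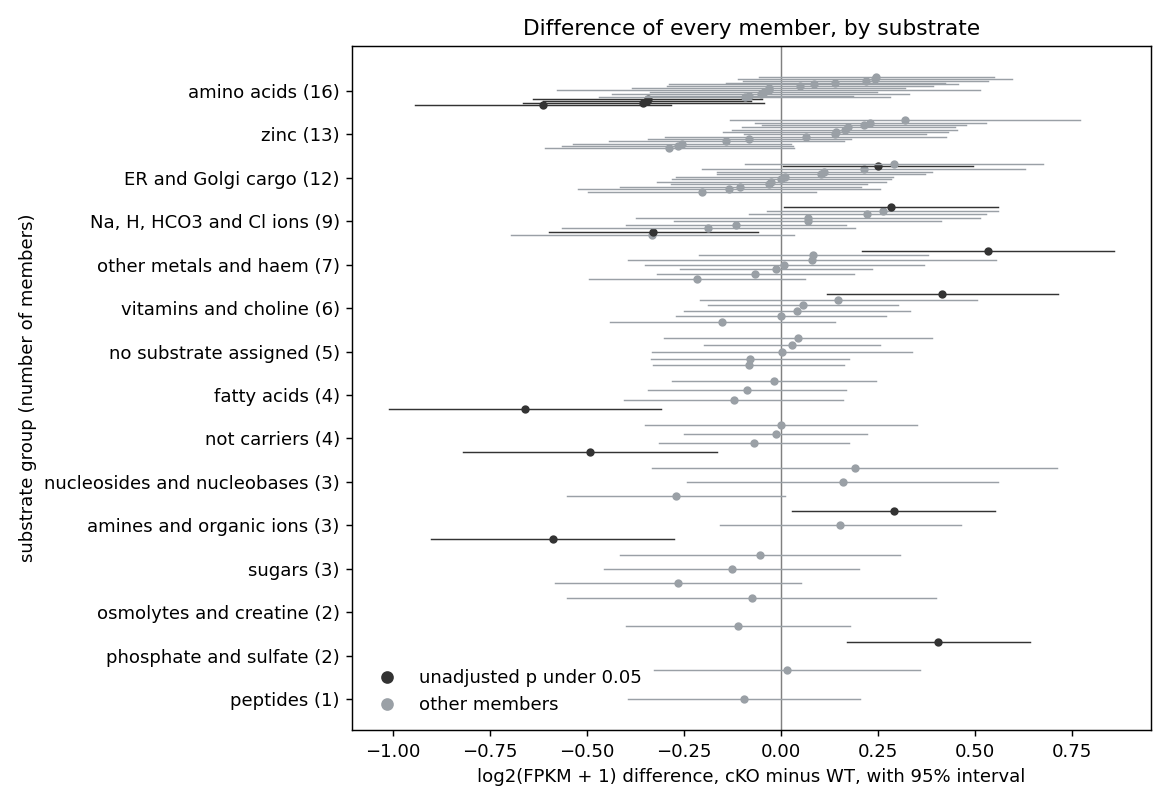
Log2(FPKM + 1) difference, cKO minus WT, of every member, by substrate group. Lines are 95% intervals and dark points have an unadjusted p under 0.05; amino acids hold 4 dark points, all negative, and zinc holds none.

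Iron, copper, magnesium and haem carriers numbered 7. Slc40a1 encodes ferroportin, the cellular iron exporter, and had 6.05, 7.78 and 7.80 FPKM in cKO libraries, against 4.18, 4.40 and 5.41 FPKM in WT libraries. All cKO libraries were higher, and its log2 difference of 0.53 was the highest of all members (SE 0.14, limma adjusted p = 0.372). It was 0.38 with length and GC trends removed. The WT mean of Slc40a1 was 4.66 FPKM, so it met the limit of 5 FPKM only through its cKO libraries. The gene (ENSMUSG00000025993) lies on the minus strand of chromosome 1 at 45908068 to 45926523 with no exon overlap. Haemoglobin genes took 0.383 to 0.507% of reads in cKO and 0.213 to 0.431% in WT libraries, and the part of blood cells in the difference of Slc40a1 was not tested. Slc11a2, the divalent metal importer that brings iron in, differed by -0.07, and the copper importer Slc31a1 by 0.08, both with overlapping groups. Slc41a3, of a magnesium carrier family, was lower in all cKO libraries (5.11, 5.46 and 5.22 FPKM, against 5.98, 5.67 and 7.27 FPKM in WT), a log2 difference of -0.22, or -0.05 with the trends removed.

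Of 6 vitamin and choline carriers 5 had a positive difference, beside 45 of all 90 members, and the group median was 0.05. The difference of Slc44a2 was only 0.0001, and 1 of the 6 had an unadjusted p under 0.05. Slc19a2, the high-affinity thiamine carrier without which male mice are infertile, had 5.69, 6.80 and 7.44 FPKM in cKO libraries, against 4.85, 4.25 and 5.03 FPKM in WT libraries. The groups did not overlap, and a log2 difference of 0.42 resulted (SE 0.13, limma adjusted p = 0.372), or 0.38 with length and GC trends removed. Its unadjusted p was above 0.05 without cKO replicate 3 and under it without any other library. The folate carrier Slc19a1 differed by 0.04, the ascorbate carrier Slc23a2 by 0.15 and the choline carrier Slc44a1 by 0.06, all with overlapping groups. The riboflavin carrier Slc52a3 was the negative one, at -0.15.

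Carriers of sodium, protons, bicarbonate and chloride numbered 9, with a median log2 difference of 0.07 and sums of 81.8, 75.9 and 80.3 FPKM in cKO libraries, against 71.8, 89.3 and 85.4 FPKM in WT libraries. These sums overlapped, and the WT libraries lay on both sides of the cKO libraries. Slc12a4, a potassium-chloride exporter, had 15.3, 12.4 and 13.1 FPKM in cKO libraries, against 16.6, 18.3 and 17.0 FPKM in WT libraries, all cKO libraries being lower (log2 difference -0.33, limma adjusted p = 0.379). With length and GC trends removed its unadjusted p was above 0.05, at a difference of -0.15. Slc12a2, the sodium-potassium-chloride importer that male mice need for sperm production, had 8.30, 10.5 and 8.62 FPKM in cKO libraries, against 7.78, 7.96 and 6.59 FPKM in WT libraries. Its difference of 0.26 had no unadjusted p under 0.05 and was 0.05 with the trends removed, where the groups overlapped. Slc12a4 shares exon bases with Gm16156. The anion exchanger Slc4a2, also needed for sperm production in mice, averaged 11.3 ± 1.33 FPKM in cKO and 12.3 ± 1.01 FPKM in WT (SD, n = 3 each).

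The 12 carriers of nucleotide sugars and other cargo of the endoplasmic reticulum and Golgi had a median difference of 0.01 and summed to 178, 169 and 182 FPKM in cKO libraries, against 179, 173 and 181 FPKM in WT libraries. Slc35a4, the one with the highest level, averaged 34.4 ± 2.47 FPKM in cKO and 34.5 ± 3.45 FPKM in WT (SD, n = 3 each), and shares exon bases with Apbb3. Slc35a1, the CMP-sialic acid carrier, differed by 0.01 and Slc35b2, which carries the sulfate donor PAPS, by -0.20. The member that did not overlap was Slc35e3, with 10.2, 10.3 and 11.6 FPKM in cKO libraries, against 9.24, 8.57 and 8.73 FPKM in WT libraries. All its cKO libraries were higher, at a log2 difference of 0.25 as deposited (limma adjusted p = 0.404) and 0.24 with length and GC trends removed, under an unadjusted p of 0.05 in both.

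Nucleoside carriers numbered 3. Slc29a1, the equilibrative nucleoside carrier, had 23.6, 19.7 and 23.4 FPKM in cKO libraries, against 26.1, 25.4 and 29.4 FPKM in WT libraries, all cKO libraries being lower. The difference of -0.27 had no unadjusted p under 0.05 and was -0.13 with the trends removed, and the gene shares exon bases with Gm17080. Slc43a3, a purine nucleobase carrier, and Slc29a3, of lysosomal membranes, had positive differences of 0.19 and 0.16 with overlapping groups. The creatine carrier Slc6a8 and the taurine carrier Slc6a6 differed by -0.11 and -0.08, and the sugar carriers Slc50a1, Slc45a4 and Slc45a3 by -0.13, -0.26 and -0.05, each with overlapping groups. The peptide and histidine carrier Slc15a4 differed by -0.09, and 5 members with no assigned substrate lay between -0.08 and 0.04. Of the 4 that are not carriers, Slc9a3r2, a scaffold of sodium-proton exchangers, had 25.2, 22.6 and 19.7 FPKM in cKO libraries, against 36.6, 28.3 and 31.2 FPKM in WT libraries. All cKO libraries were lower, at a log2 difference of -0.49 (limma adjusted p = 0.372), or -0.23 with the trends removed. Its relative Slc9a3r1 differed by -0.01.

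Libraries differed in how the carriers stood in them. WT replicate 1 was the lowest of the 6 for 35 members (38.9%), against 27.7% of genes tested, and held the smallest share of reads on members at 0.536%. WT replicate 3 was the highest for 27 members (30%), beside 16.2% of genes tested, and cKO replicate 3 for 24 (26.7%), beside 19.8%. With WT replicate 1 left out, 24 members lay lower in every cKO library, in place of 12. That is 26.7% of members, beside 18.2% of genes tested in that fit. With WT replicate 2 left out, 19 members (21.1%, beside 14.5% of genes tested) lay higher in every cKO library, in place of 10. With cKO replicate 1 left out, 16 members (17.8%, beside 18.7% of genes tested) lay higher in both remaining cKO libraries.

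**Figure D4:**
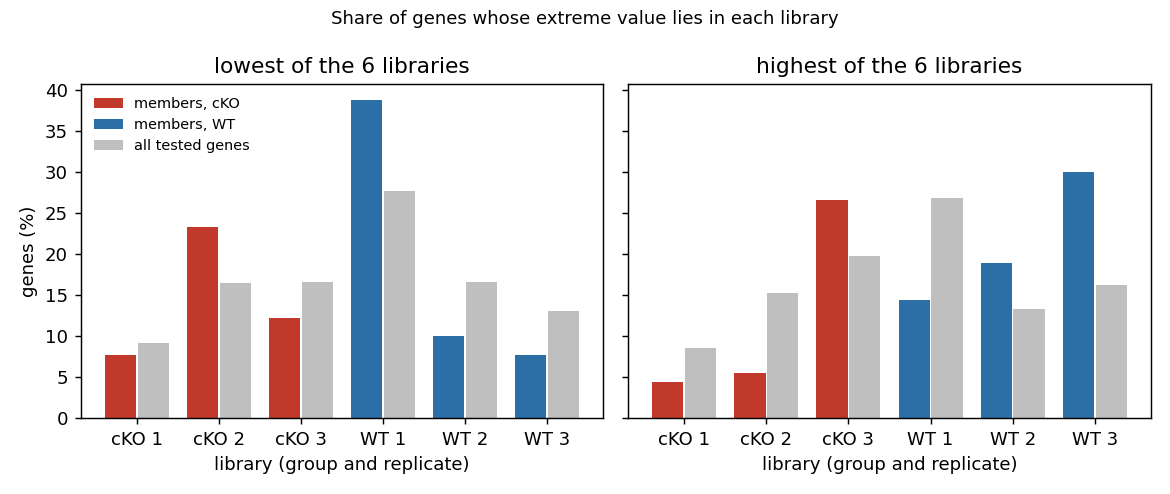
Share of the 90 members, and of all genes tested, for which each library was the lowest or the highest of the 6, in percent. WT replicate 1 is the lowest for 38.9% of members, the highest such share.

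Of the genes that work with the carriers, and of carriers with other symbols, 0 passed the adjusted threshold. Over all genes tested, 4.65% were higher and 7.68% lower at an unadjusted p under 0.05 by limma. Of 13 sodium pump subunits and FXYD regulators 10 were tested, 0 passed after adjustment by limma, and 2 were lower at an unadjusted p under 0.05. These were the pump regulators Fxyd1, at 5.27 ± 0.505 FPKM in cKO and 8.68 ± 1.84 FPKM in WT (SD, n = 3 each), and Fxyd6, at a log2 difference of -0.32. Of 17 tested subunits of the vacuolar proton pump, which drives many vesicle carriers, 1 was lower at that level, Atp6v1g1, at a log2 difference of -0.43 with overlapping groups, and 0 were higher. Of 13 tested carriers with other symbols 2 were higher, the phosphate exporter Xpr1 and the ammonia carrier Rhcg (both 0.35), and 1 was lower, Spns1, a lysosomal lipid carrier, at -0.26. None of these passed after adjustment.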

How the data were processed

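Gene-level FPKM values of all 6 libraries stand in 1 table that the authors deposited. Trizol extraction and a SMARTER mRNA kit are named per the labels' protocols. Builds GRCm38 and mm10 are named per the submitters' processing notes. As to the aligner, counter, annotation and use of strand, these are not stated in the sources used. In each library, 100% of values times gene length were multiples of a single step (tolerance 0.01). Dividing by it recovered 16070287 to 17281330 reads per library. The total behind each library's FPKM was 0.990 to 1.02 times these reads. Members held 147 to 6550 reads per library.

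Groups came from the genotype labels. In R 4.3.3, limma 3.58.1 with its mean-variance trend compared cKO minus WT on log2(FPKM + 1) for the 14238 genes that averaged at least 1 FPKM. P-values were adjusted by Benjamini-Hochberg, with 0.05 as the threshold. This scale understates changes of low genes. For 3 against 3 libraries an exact permutation p cannot go below 0.1. Positions, exon overlaps and GC content are those of GENCODE M21 on GRCm38, matched for all 90 members by gene identifier, and 26 members share exon bases with another gene. Shared reads make those uncertain.

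The members, substrate groups, markers and partner lists were chosen with earlier results of these data known. Named members are up to 12 per direction with the lowest p among those with non-overlapping groups, the 3 with the highest mean per substrate group, 2 genes on each side of the level limit, and members known for roles in testis, some of which are given only in counts and ranges or are not reported here. Of each partner list up to 4 genes with the lowest p could be named.

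Alternatives were a pseudocount of 0.1 or 0.5, a level filter left out or set to 5 FPKM, 3 other scalings, no variance trend, a replicate block, voom on recovered reads (3 or more libraries with 10 or more reads), removal of length and GC trends (splines of 5 degrees of freedom) with and without the block, and leaving out each library. The fit was also run on simulated reads with a common spread for all genes and no GC trend. The changes planted there were larger than those of the members, so that run cannot tell how often differences of the members' size are found. Python 3.11.15, pandas 2.3.3, numpy 2.4.6 and matplotlib 3.10.9 served for tables and plots.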

Additional observations from a re-analysis of the deposited data

How the results depend on the processing

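By limma, 0 members passed the adjusted threshold in any of the 18 alternatives, as in the fit reported. The median difference of the members stayed between -0.06 and 0.05. The signs of all 22 non-overlapping members were kept in all 19 fits. Of 252 values of the 14 members at an unadjusted p under 0.05, 200 stayed under it, 52 did not and 0 changed sign. Of 756 values of 42 other named members 8 came under it. Such counts across fits were not made for all genes tested.

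The 6 members higher at an unadjusted p under 0.05 became 3 (3.33%) with a replicate block and 2 to 8 (2.22 to 8.89%) without 1 library. The shares of genes tested that were higher were 4.54% with the block and 1.65 to 7.43% without 1 library. The 8 lower became 5 on the TPM scale, 5 with length and GC trends removed, 3 with those trends removed and a replicate block, and 4 to 11 without 1 library. Of genes tested, 5.25% were lower at that level on the TPM scale, 5.05% with the trends removed and 4.95% with the block added. Without 1 library, 3.35 to 10.3% of genes tested were lower, beside 4.44 to 12.2% of members. The 10 non-overlapping members that were higher became 10 to 19 without 1 library. The 12 that were lower became 6 on the TPM scale and 13 to 24 without 1 library, where fewer libraries overlap more rarely. On the TPM scale 7.26% of genes tested lay lower without overlap, beside 9.92% as deposited. The cause of the other shifts was not tested. Same-numbered libraries correlated at 0.09, -0.33 and 0.39 in their deviations from the group means. With 3 libraries per group such deviations depend on each other and cannot tell whether the numbers pair the samples. Not every library correlated best with its own number. Voom on recovered reads kept 13 of the 14 members under 0.05, a count not made for all genes. Over all genes, adjusted calls numbered 0 to 3 by setting.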

Other observations

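Below the level limit, 64 further genes that met the naming part of the rule were tested. At an unadjusted p under 0.05 (limma) 2 (3.12%) were higher, beside 4.65% of all genes tested, and 5 (7.81%) were lower, beside 7.68%, with 0 past adjustment. Among the 5 lower was Slc10a4-ps, whose symbol is of the kind given to pseudogenes, at a log2 difference of -0.58. Slc13a2, a sodium-coupled carrier of citrate and succinate chosen here after its values were seen, had 1.31, 1.86 and 1.55 FPKM in cKO libraries, against 5.29, 2.82 and 4.22 FPKM in WT libraries. Its difference on the log2 scale, -0.97 (SE 0.20, limma adjusted p = 0.360), was larger in size than that of any of the 90 members, and -0.79 with length and GC trends removed. Slc8b1, the mitochondrial sodium-calcium exchanger chosen in the same way, had 3.32, 3.38 and 3.26 FPKM in cKO libraries, against 5.07, 4.47 and 6.25 FPKM in WT libraries. The log2 difference of Slc8b1 was -0.53 (SE 0.13, limma adjusted p = 0.361), and -0.35 with length and GC trends removed. Neither pair of groups overlapped.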
